A study of Mus musculus with 8 samples.

Results

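The Hox cluster genes were the 38 genes of the array, of 28146 named genes, whose name is Hoxa, Hoxb, Hoxc or Hoxd followed by a number. They were chosen by name alone and are measured by 50 of the array's 41174 probes. In 25 of the 38 genes at least 1 probe was well above background, the scanner software's call of a spot brighter than its surroundings, in a channel on at least 2 of the 8 arrays. These 25 were among the 19141 genes that entered the tests.

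Hox genes encode homeodomain transcription factors that give cells their position along the head-to-tail axis. They lie in 4 clusters, HoxA to HoxD, and genes at the same place in each cluster form paralogue groups numbered 1 to 13. Low-numbered genes lie at the 3′ end of a cluster and act towards the head, high-numbered genes lie at the 5′ end and act towards the tail. In the gut, Hox expression is known mainly from the mesenchyme and, at lower levels, from the epithelium, where it differs between regions.

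RNA came from mouse small-intestinal organoids, crypt-like epithelial structures grown in culture, and was measured on 8 two-colour Agilent arrays in 3 experiments. Every array carried the RNA of a condition (its own RNA) beside control RNA, and all cultures had a 16 h pulse of 4OH-tamoxifen, which activates the CreERT2 recombinase. Experiment 1 set organoids labelled Ascl2 transduced, with Ascl2 driven by the CMV promoter and RNA taken after 24 h, against VillinCreERT2 organoids, which express that recombinase from an intestinal epithelial promoter, on 2 arrays with the dyes swapped on replicate 2. Experiment 2 had 1 array each of Tcf7l2null organoids, of Tcf7l2null organoids that also overexpress Ascl2, and of organoids labelled Ascl2 over expressing, each against dsGFP transduced organoids, in which the pulse turned on GFP. Experiment 3 had 1 array of Ascl2null organoids against VillinCreERT2 organoids. In both null groups the pulse was meant to delete the gene, which the probes of these genes did not check. Experiments 2 and 3 each had 1 self-self array with the control's RNA in both colours; for that of experiment 3 the genotype label reads VillinCreERT2 and the description Ascl2loxp/loxp. Ascl2 encodes a basic helix-loop-helix factor active in crypt stem cells, while Tcf7l2 binds the DNA at Wnt target genes together with beta-catenin. The age of the mice, the number of cultures pooled and whether the replicates of experiment 1 were separate cultures are not stated by the labels. Its p-values therefore measure only the spread between arrays, which may be technical.

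The probes of the main genes below are 60 bases long, and the first 30 bases of each are shown with the position of the whole probe in the mouse build mm9, as the array's annotation gives it; that annotation does not say which exon or untranslated region a probe lies in. Hoxb6 is shown because its probes disagree.
Hoxa7, chr6:52165626-52165685, minus strand: gacagttggaaaagcgtctttaagagactc
Hoxa10, chr6:52181656-52181715, minus strand: gcaggtttgtttatacatgtggaactggtg
Hoxa11, chr6:52192107-52192166, minus strand: tgaatgtatgcttcatacagggatggtgtt
Hoxb7, chr11:96151211-96151270, plus strand: gttgctagtaaggtctttgtaaaatcttgc
Hoxd4, chr2:74566866-74566925, plus strand: tcatatggcaggagctactgagaacataaa
Hoxd8, chr2:74545021-74545080, plus strand: tgcgctttgaaagggatttctgtgttttta
Hoxb6, 3′ probe, chr11:96162563-96162622, plus strand: tcgagtctcatttcgtccatgtcccccgtg
Hoxb6, 5′ probe, chr11:96160281-96160340, plus strand: ggtgctatttgacaattcctgcctctgcca
RefSeq's gene table pairs the transcript accession of 46 of the 50 probes with the same gene symbol and has no entry for that of the remaining 4, among them the 5′ Hoxb6 probe and the Hoxc4 and Hoxc6 probes. The genes of the HoxA probes shown lie close together in the cluster.

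The share of spots well above background was 50.1% to 61.1% in Cy3 and 53.8% to 67.4% in Cy5, and no spot was saturated. The targeted genes did not check the labels: the Ascl2 probe had log2 ratios of -0.31 and 0.12 on the arrays of experiment 1, -0.68 and -0.92 on the other arrays labelled as overexpressing Ascl2, and -1.07 on the Ascl2null array. The 3 Tcf7l2 probes ran from -0.35 to -0.098 on the Tcf7l2null array and from -0.20 to 0.37 on the self-self array beside it. The labels do not say which parts of either gene were deleted or overexpressed. Conditions are therefore named by their labels, and every direction below rests on them.

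Detection was densest in the HoxA cluster. All 11 HoxA genes were well above background in at least 1 of the 16 channels, and 10 entered the tests, beside 7 of 10 HoxB, 3 of 8 HoxC and 5 of 9 HoxD genes. Well above background on all 8 arrays were 5 HoxA genes, 1 HoxB and 1 HoxC gene and 0 HoxD genes. Of the 28146 named genes, 19141 entered the tests and 14084 had a probe well above background on all 8 arrays. For the 38 Hox genes these counts were 25 and 7. Both channels were well above background on at least 6 arrays for Hoxa3, Hoxa6, Hoxa7, Hoxb6 and Hoxc4. In paralogue groups 2, 3, 4, 6 and 7 every gene on the array entered the tests, whereas in each of the groups 1, 8 and 10 to 13 only 1 gene did. The 9 genes never well above background were Hoxb1, Hoxb13, Hoxc8, Hoxc9, Hoxc10, Hoxc12, Hoxd10, Hoxd11 and Hoxd13. The 13 genes that did not enter the tests ran from -0.30 to 0.67, and the highest of these values was that of Hoxc9 on replicate 2 of experiment 1, in channels not well above background.

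**Figure D1:**
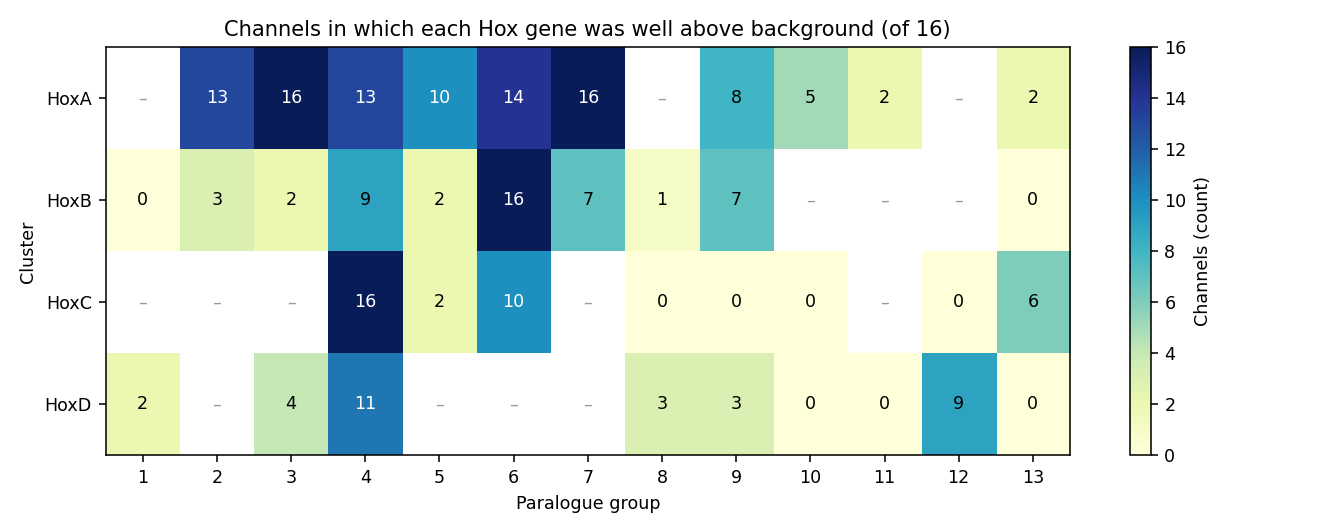
Each cell gives the number of channels, of 16, in which a gene was well above background, by cluster (rows) and paralogue group (columns); a dash marks a place with no gene shown. Hoxa3, Hoxa7, Hoxb6 and Hoxc4 reach 16, and the right-hand columns are mostly low, with Hoxd12 at 9 and Hoxc13 at 6.

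Detection also went with the dye and the slide. On replicate 1 of experiment 1, 23 Hox genes were well above background in the Ascl2 transduced RNA, labelled with Cy5, and 13 in the control. On replicate 2, with the dyes swapped, 11 were so in the Ascl2 transduced RNA and 15, again the Cy5 side, in the control. Counts of detected genes are therefore not compared between own and control RNA. The self-self array of experiment 3 had 18 and 19 detected Hox genes in its channels, and that of experiment 2 had 10 and 11.

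On most arrays the Hox genes that entered the tests lay near 0. The median log2 ratio over the 25 genes, own RNA over control, was -0.00098 and 0.0092 on the arrays of experiment 1, 0.036 in Tcf7l2null, 0.054 in Ascl2 over expressing and 0.15 in Tcf7l2null/Ascl2 over expressing organoids, and -0.042 in Ascl2null organoids. The medians over all genes lay between -0.0014 and 0.0063. The sign of the Tcf7l2null median turned under 4 of 10 alternative settings, among them median centring. On the self-self arrays the 25 genes ran from -0.27 to 0.34, and 0 of them reached 2-fold there, beside 0.0105% of all genes in experiment 2 and 0.0836% in experiment 3. In the mean of experiment 1, 0 of the 25 reached 2-fold, beside 0.393% of all genes.

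**Figure D2:**
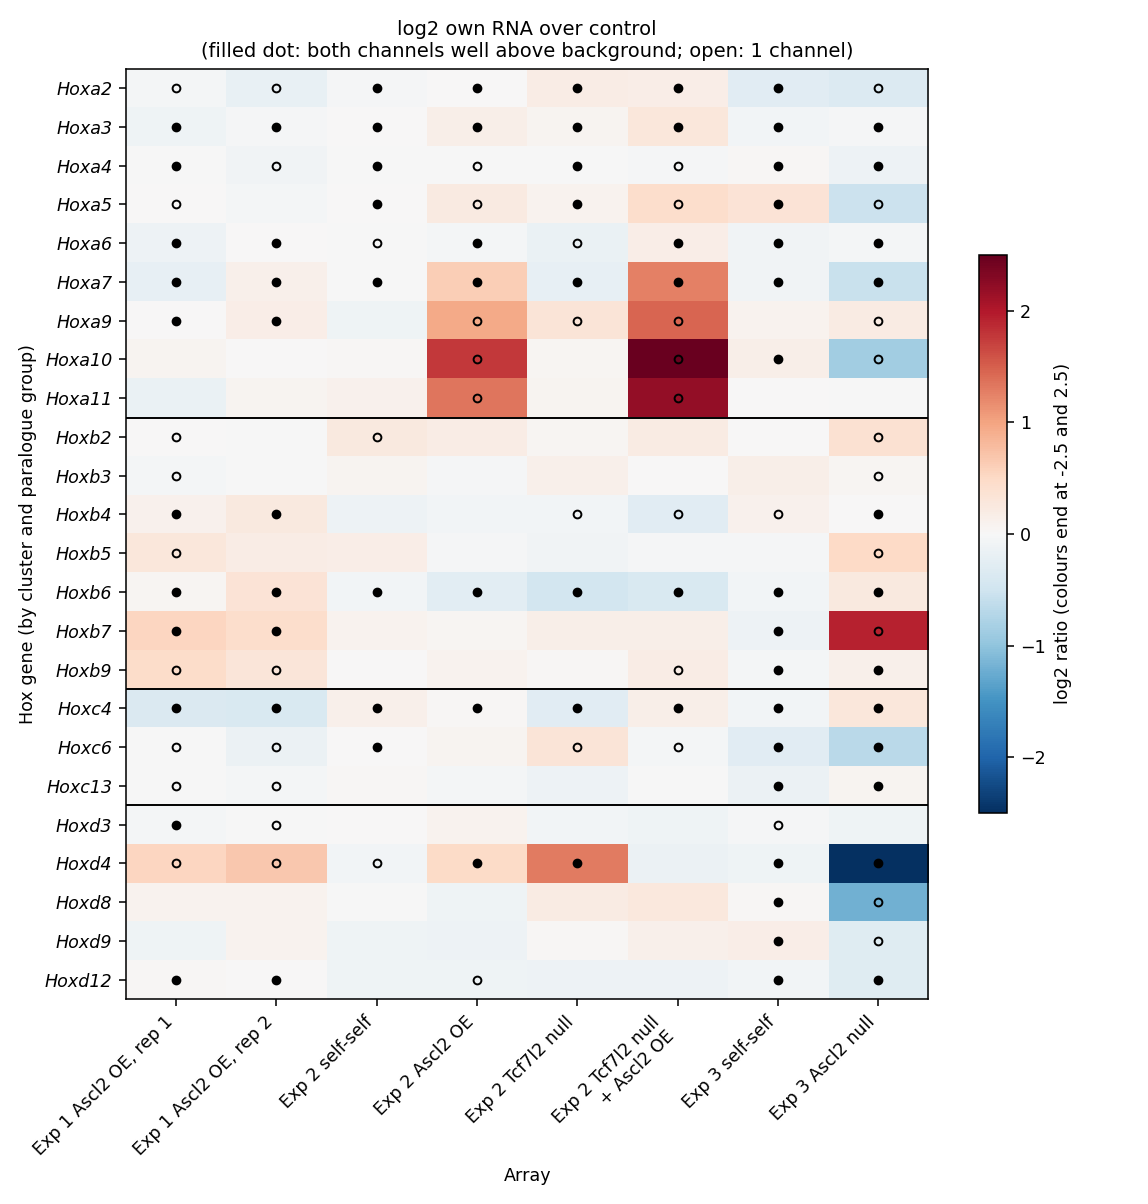
Colour gives the log2 ratio of own RNA over control for Hox genes that entered the tests (rows, by cluster) on each of the 8 arrays (columns); a filled dot marks both channels well above background, an open dot 1 channel. OE stands for overexpression. The colour is strongest for Hoxa7 to Hoxa11 in experiment 2 and for Hoxb7, Hoxd4 and Hoxd8 on the Ascl2null array.

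In experiment 2, the 5′ HoxA genes were higher on both arrays labelled as overexpressing Ascl2. Without Tcf7l2, 4 of the 25 Hox genes were at least 2-fold higher than in the dsGFP control, beside 0.994% of all genes, and 0 were 2-fold lower, beside 1.72% of all genes. All 4 were neighbours: Hoxa7, Hoxa9, Hoxa10 and Hoxa11. Hoxa11 entered the 25 only through the 2 arrays on which it was high, so the filter in part sets these counts, and 3 of the 4 genes entered also through other arrays. On the Ascl2 over expressing array with Tcf7l2 present, 2 of the 25, Hoxa10 and Hoxa11, were at least 2-fold higher, beside 0.837% of all genes, and 0 were 2-fold lower, beside 0.727%. These arrays have no replicate, all carry their own RNA in Cy5, and share the dsGFP control, so no test is given for them and their likeness is not counted.

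Hoxa10, a group 10 gene of posterior patterning, had the highest Hox ratio. It was 2.46 in Tcf7l2null/Ascl2 over expressing and 1.78 in Ascl2 over expressing organoids, 0.046 in Tcf7l2null organoids and 0.027 on the self-self array. On the arrays of experiment 1 it was 0.078 and 0.0092, and in experiment 3 -0.86 in Ascl2null organoids and 0.14 on the self-self array. It stood out on the 2 overexpression arrays of experiment 2 and nowhere in experiment 1. In the dsGFP RNA the probe was not well above background, so the increase is given as at least 5.52-fold and at least 3.32-fold. These bounds set the brighter channel against the higher of the dim channel's value and the dimmest detected probe, and without a dye swap they remain open to dye bias. Where the dim channel's value was the higher, as for the 5.52-fold, the bound is the measured ratio itself. The same holds for the 4.59-fold of Hoxa11 below. They hold for the main processing alone. Over the alternative settings the log2 ratios fell as low as 2.17 and 1.48, below these bounds.

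Hoxa11, the next gene in the 5′ direction, was 2.20 and 1.33 on the same arrays, and between -0.16 and 0.11 on the 6 others. It was well above background in these 2 RNAs and in no other channel of the series. In the main processing its increase was at least 4.59-fold and at least 2.33-fold. Hoxa9, a gene also known for its role in blood progenitors, was 1.45 in Tcf7l2null/Ascl2 over expressing, 0.95 in Ascl2 over expressing and 0.33 in Tcf7l2null organoids. Its bounds in the main processing were at least 2.72-fold, at least 1.93-fold and at least 1.23-fold. The 2.72-fold and 1.93-fold are the measured ratios themselves. With other settings the log2 ratios fell as low as 1.36, 0.84 and 0.18, below these bounds. The 0.33 lay within the self-self range of the 25 Hox genes, -0.27 to 0.34. On the arrays of experiment 1 Hoxa9 was 0.013 and 0.16, on the Ascl2null array 0.21, and on the self-self arrays -0.10 and 0.082. Over the alternative settings the ratios kept their sign but not their size, from 2.17 to 5.82 for Hoxa10 and from 2.02 to 5.56 for Hoxa11 without Tcf7l2. Hoxa13, the most posterior gene of the cluster, lies beyond Hoxa11. It was well above background on only 1 array and so did not enter the tests. In Tcf7l2null/Ascl2 over expressing and Ascl2 over expressing organoids it was 0.14 and 0.023.

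Hoxa7 was the only one of the 4 with both channels well above background on every array, so its ratios are measured on both sides. It was 1.26 in Tcf7l2null/Ascl2 over expressing and 0.61 in Ascl2 over expressing organoids, and -0.20 in Tcf7l2null organoids. The arrays of experiment 1 gave -0.21 and 0.12, the Ascl2null array -0.56, and the self-self arrays -0.0042 and -0.088. The probe's normalised log2 intensity in the control RNA was 8.13 to 8.35 in experiment 2, against 6.63 to 6.72 in experiment 1 and 6.91 to 7.06 in experiment 3. Hoxa7 was thus brighter in the dsGFP RNA than in either VillinCreERT2 RNA, but each experiment had a slide of its own, so the slide and the control cannot be told apart.

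Between the Tcf7l2null/Ascl2 over expressing and the Tcf7l2null array, the 4 genes differed by 2.42 (Hoxa10), 2.13 (Hoxa11), 1.47 (Hoxa7) and 1.12 (Hoxa9) on the log2 scale. These are differences of measured ratios: only for Hoxa7 was every channel well above background, and for Hoxa9, Hoxa10 and Hoxa11 the dsGFP control was not. They were the 4 Hox genes at least 2-fold higher, beside 2.33% of all genes. Against the Ascl2 over expressing array the same genes were higher by 0.50 to 0.87, and 0 Hox genes reached 2-fold either way, beside 1.47% of all genes.

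**Figure D3:**
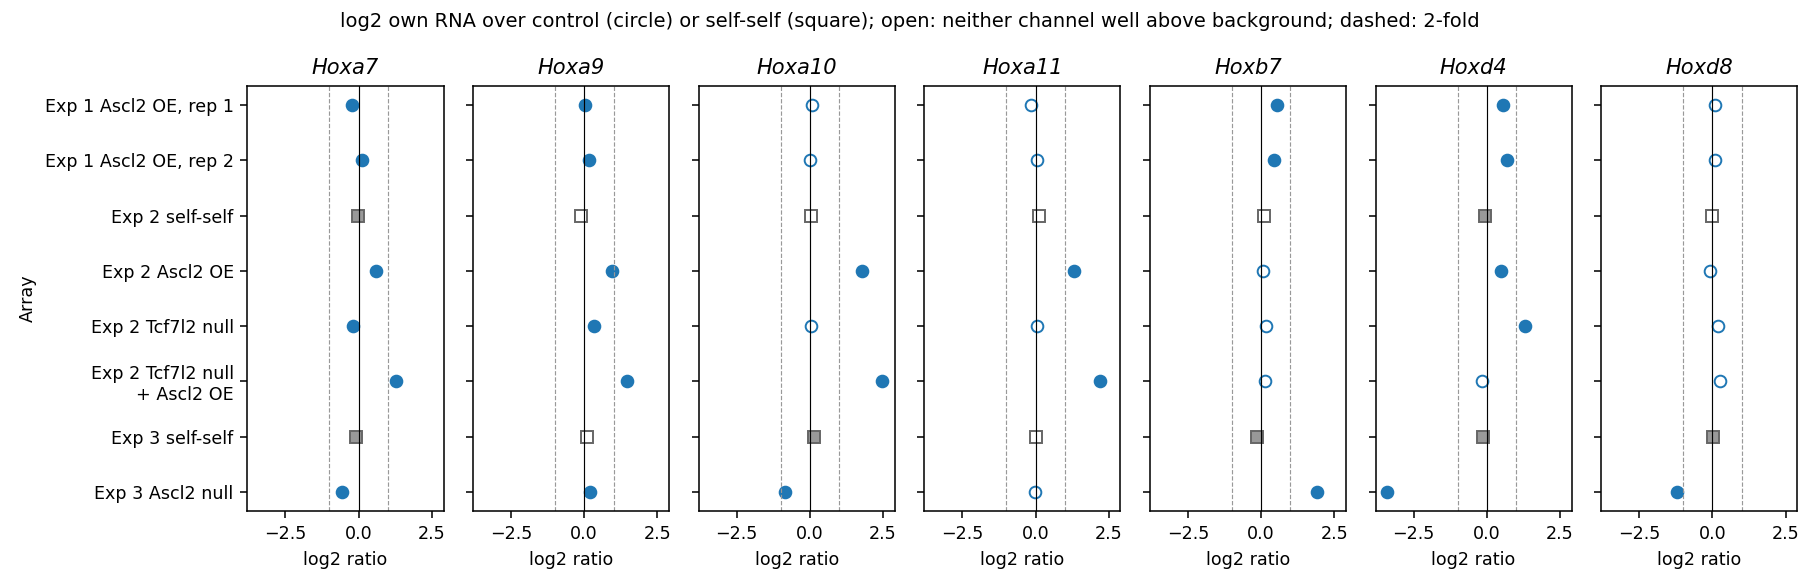
Points give the log2 ratio on each of the 8 arrays (rows) for the 7 Hox genes that reached 2-fold on an array other than a self-self one; squares are self-self arrays, open symbols have neither channel well above background, and dashed lines mark 2-fold. Hoxa10 and Hoxa11 lie right of the dashed line on both overexpression arrays of experiment 2, and Hoxd4 spans from -3.42 to 1.31.

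The 3′ HoxA genes stayed close to 0 beside these. Hoxa3, a group 3 gene, was -0.10 and -0.033 in experiment 1, 0.15 in Ascl2 over expressing, 0.075 in Tcf7l2null and 0.29 in Tcf7l2null/Ascl2 over expressing organoids, and -0.029 in Ascl2null organoids. Its self-self values were 0.017 and -0.065. Hoxa6, the gene next to Hoxa7, was -0.12 and 0.0077 in experiment 1, then -0.054, -0.17 and 0.16 in the same order in experiment 2, and -0.042 in Ascl2null organoids. Its self-self values were -0.0097 and -0.091, and 3 of the 6 condition ratios were smaller in size than the larger of these. Hoxa5, known from lung and gut mesenchyme, was 0.44 in Tcf7l2null/Ascl2 over expressing and -0.53 in Ascl2null organoids, beside 0.34 on the self-self array of experiment 3. Hoxa2 and Hoxa4 ran from -0.35 to 0.19. In Tcf7l2null/Ascl2 over expressing organoids 9 of the 10 HoxA genes were above 0, with a median of 0.37, while 50.8% of all genes were above 0.

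Among HoxB genes, Hoxb7 was higher in Ascl2null organoids. It was the 1 Hox gene at least 2-fold higher there, beside 1.92% of all genes. Its ratio was 1.92 in Ascl2null organoids, 0.53 and 0.44 on the arrays of experiment 1, between 0.054 and 0.15 on the other arrays of experiment 2, and 0.093 and -0.13 on the self-self arrays. In experiment 2 the probe was not well above background in either channel of any array. On the Ascl2null array the control channel was not well above background, with a log2 intensity of 6.18 beside 8.10 in the Ascl2null RNA. The self-self array of that control gave 6.78 and 6.91, both well above background. The control level of Hoxb7 thus differed between the arrays of experiment 3, and against the self-self levels the increase would be smaller, so no bound is given.

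Hoxb6 was well above background in all 16 channels by its 5′ probe and in 14 by its 3′ probe, but the probes went apart. The 3′ probe was 0.85 and 0.91 on the arrays of experiment 1, and the 5′ probe -0.77 and -0.24. On the Tcf7l2null array they were 0.049 and -0.96, on the Ascl2null array -0.0076 and 0.51, and on the self-self arrays -0.058 and 0.13 for the 3′ probe and -0.072 and -0.28 for the 5′ probe. On the arrays of experiment 2 with overexpressed Ascl2 both were below 0, at -0.31 and -0.44 without Tcf7l2 and at -0.32 and -0.20 with it. Their mean, 0.041 and 0.33 in experiment 1, hides opposite signs there, and with the brightest probe in its place the mean of that experiment was -0.51. The probes lie over 2 kb apart, and no direction is given for Hoxb6.

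Hoxb9, a posterior HoxB gene, was 0.47 and 0.31 in experiment 1 and between 0.036 and 0.19 on the other condition arrays. Hoxb4 was 0.11 and 0.25 in experiment 1 and -0.28 in Tcf7l2null/Ascl2 over expressing organoids. Hoxb2, Hoxb3 and Hoxb5 ran from -0.095 to 0.49, the highest value being that of Hoxb5 in Ascl2null organoids. Hoxb8 did not enter the tests.

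In the HoxC cluster, Hoxc4 was the best detected gene, in all 16 channels of its 1 probe. RefSeq had no entry for that probe's transcript, and its annotated position, chr15:102866538-102866583, is shorter than its 60 bases. Whether the signal is Hoxc4 RNA was not tested. Hoxc4 was -0.37 and -0.38 on the arrays of experiment 1, -0.29 in Tcf7l2null, 0.15 in Tcf7l2null/Ascl2 over expressing, 0.030 in Ascl2 over expressing and 0.28 in Ascl2null organoids, beside 0.12 and -0.059 on the self-self arrays. The dye-swapped arrays of experiment 1 gave nearly the same value, and the Ascl2 over expressing array of experiment 2 was near 0. Hoxc6 was -0.67 in Ascl2null organoids, with both channels well above background there, and -0.27 on the self-self array of that experiment. Hoxc13 ran from -0.13 to 0.074, and Hoxc5 did not enter the tests.

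HoxD held the largest single ratio of the family. In Ascl2null organoids Hoxd4 was -3.42 with both channels well above background, and with Hoxd8 (-1.21) it made up the 2 Hox genes at least 2-fold lower, beside 1.27% of all genes. The self-self array of experiment 3 gave -0.11 and 0.023 for the same genes. Hoxd8 was not well above background in the Ascl2null RNA, and its decrease was at least 1.60-fold. It entered the tests only through the 2 arrays of experiment 3, where the control was well above background. Over the alternative settings the Ascl2null ratios ran from -5.23 to -3.33 for Hoxd4, from -3.53 to -1.13 for Hoxd8 and from 1.88 to 5.08 for Hoxb7.

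The Hoxd4 value came with a bright control. The probe's log2 intensity in the experiment 3 control lay between 10.44 and 10.56 in its 3 channels, on the Ascl2null and the self-self array, and was 7.08 in the Ascl2null RNA. In experiment 1 the control, also labelled VillinCreERT2, gave 6.37 and 6.55 and was not well above background on either array, and the dsGFP control of experiment 2 gave 6.74 to 6.94. Hoxd4 was thus high in 1 of the 3 control RNAs, and the Ascl2null RNA, at 7.08, lay within the range of the remaining RNAs of the series, 6.37 to 8.24. Intensities were quantile-normalised across arrays after each array's own ratio normalisation, and the culture, slide and label cannot be told apart in this comparison.

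**Figure D4:**
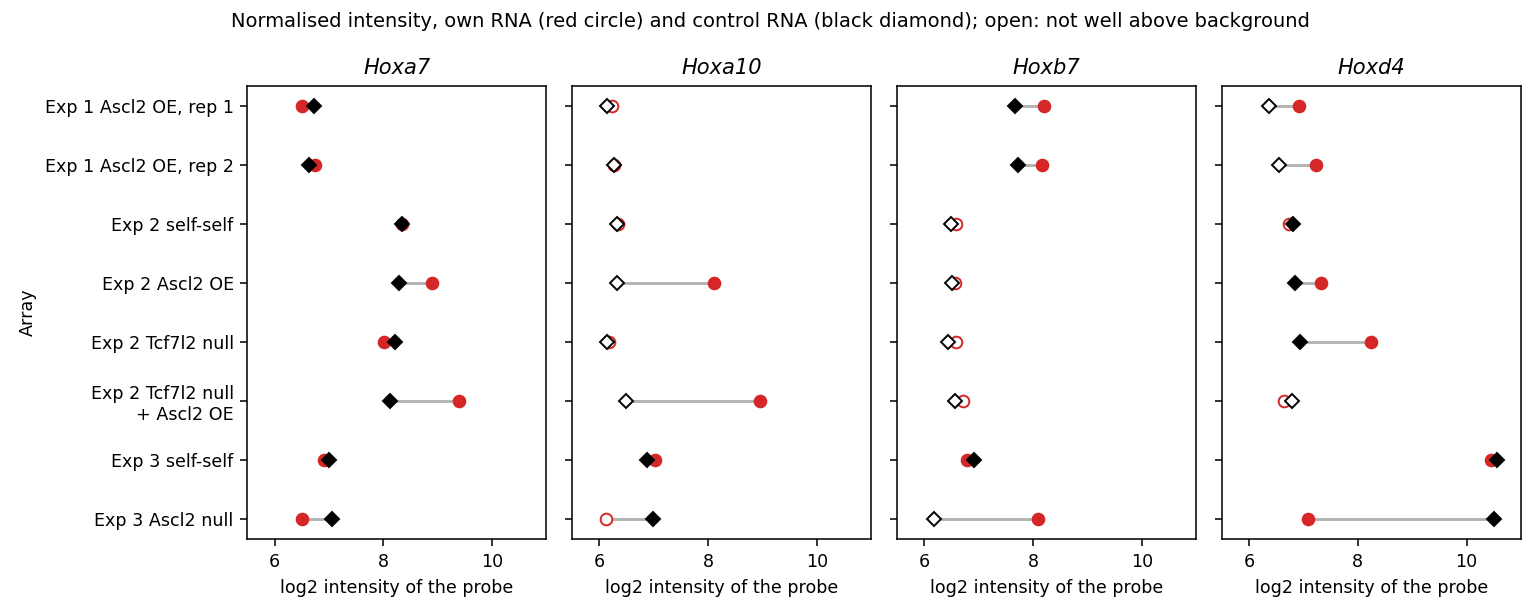
Normalised log2 intensity (horizontal axis) of the single probe of 4 Hox genes in own RNA (red circles) and control RNA (black diamonds) on each of the 8 arrays; open symbols are not well above background. The Hoxd4 control diamonds of experiment 3 lie between 10.44 and 10.56, those of experiments 1 and 2 between 6.37 and 6.94.

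In experiment 2, Hoxd4 was the 1 Hox gene at least 2-fold higher in Tcf7l2null organoids, at 1.31, beside 0.340% of all genes, with both channels well above background, and 0 were 2-fold lower, beside 0.476%. It was 0.48 in Ascl2 over expressing and -0.15 in Tcf7l2null/Ascl2 over expressing organoids, where neither channel was well above background, and -0.070 on the self-self array. The measured ratio on the Tcf7l2null/Ascl2 over expressing array lay 1.46 below that on the Tcf7l2null array, a difference against channels that were not well above background. It was the 1 Hox gene at least 2-fold lower in that contrast, beside 3.64% of all genes. Hoxd3, Hoxd9 and Hoxd12 ran from -0.30 to 0.13, and Hoxd1 did not enter the tests.

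Overexpression of Ascl2 on 3 arrays was tested with limma over all genes, with a dye term and 3 residual degrees of freedom. Of the 25 Hox genes 0 passed at an adjusted p under 0.05, beside 0.0731% of all genes. At an unadjusted p under 0.05 there were 4, beside 11.7% of all genes, 3 higher and 1 lower. Hoxd4, a group 4 gene, came nearest, at 0.60 ± 0.06 (SE, n = 3; adjusted p = 0.0614), higher on 3 of 3 arrays. On those arrays it was 0.54, 0.68 and 0.48. The control was not well above background on the arrays of experiment 1. The measured increases there, 1.46-fold and 1.60-fold, were against its dim value. The 5.52-fold of Hoxa10 and the 4.59-fold of Hoxa11 are ratios of the same kind. The mean of experiment 1 was 2.32 in the scanner's own log ratio and 0.070 in the authors' deposited table, so its size depends on the processing. The other 3 at an unadjusted p under 0.05 were Hoxb7 (0.36), Hoxb9 (0.29) and Hoxc4 (-0.26), with adjusted p = 0.294, 0.291 and 0.395.

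The experiments differed most for the 5′ HoxA genes. In a fit that gave each experiment its own Ascl2 effect, with 2 residual degrees of freedom, Hoxa10 was 1.67 higher on the log2 scale in experiment 2 (limma adjusted p = 0.0298), and it was the 1 of 25 Hox genes to pass, beside 0.476% of all genes. At an unadjusted p under 0.05 there were 4 Hox genes, all higher in experiment 2, beside 7.63% of all genes. These were Hoxa10, Hoxa11 (1.40, adjusted p = 0.0653), Hoxa9 (0.90, adjusted p = 0.179) and Hoxa7 (0.76, adjusted p = 0.255). Hoxa10 and Hoxa11 were not well above background in either channel of experiment 1, and since Hoxa11 entered the tests only through arrays on which it was high, its p is no support. The test sets the single array of experiment 2 against the technical spread of the dye swap and the self-self arrays, and it says nothing of the spread between cultures. The call was lost without either replicate of experiment 1. It was also lost with median centring, where 0 genes in all were called and Hoxa10 was 1.67 in experiment 2 and -0.047 in experiment 1. In the deposited table Hoxa10 was 5.45 in experiment 2 and had no mean for experiment 1, so the difference was not tested there.

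By cluster, Hox genes went different ways in Ascl2null organoids. All 7 HoxB genes were above 0 (median 0.25), all 5 HoxD genes below 0 (median -0.30), and 9 of 10 HoxA genes below 0 (median -0.18), with 2 of 3 HoxC genes above 0. Over all genes 50.6% were above 0 on this array. On the self-self array of that slide 6 of 10 HoxA, 3 of 7 HoxB and 2 of 5 HoxD genes were above 0, and on that of experiment 2 5 of 10, 5 of 7 and 1 of 5. With identical RNA, experiment 2 thus gave a like split of HoxB and HoxD. On the Ascl2null array 4 of the 7 HoxB and 3 of the 5 HoxD genes had a channel not well above background, and apart from Hoxb7, Hoxd4 and Hoxd8 the HoxB and HoxD ratios ran from -0.30 to 0.49. Hoxa10 was -0.86 there, a decrease of at least 1.57-fold with the Ascl2null RNA not well above background, while Hoxa9 was 0.21 and Hoxa11 -0.0051.

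Promoters of genes that moved are shown as the 250 bases before the RefSeq start, in build GRCm38.p6. RefSeq's table held 24 promoters of 22 Hox genes; Hoxb7 is named only. On both strands, 4 motifs were searched: CAGCTG, the E-box form preferred by Ascl factors; CTTTGAT and CTTTGAA, forms of the TCF/LEF site; and TTTATG, a core of the site of caudal factors such as Cdx2. No Hox promoter held matches of different motifs. Matches are in capitals.
Hoxa7, chr6:52218574-52218823, minus strand: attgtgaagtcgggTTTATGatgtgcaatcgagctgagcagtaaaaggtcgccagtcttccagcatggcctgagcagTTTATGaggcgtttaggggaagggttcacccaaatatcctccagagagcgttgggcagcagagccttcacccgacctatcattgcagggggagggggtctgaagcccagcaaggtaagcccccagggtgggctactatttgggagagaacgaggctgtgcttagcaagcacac
Hoxa10, start nearest Hoxa9, chr6:52234940-52235189, minus strand: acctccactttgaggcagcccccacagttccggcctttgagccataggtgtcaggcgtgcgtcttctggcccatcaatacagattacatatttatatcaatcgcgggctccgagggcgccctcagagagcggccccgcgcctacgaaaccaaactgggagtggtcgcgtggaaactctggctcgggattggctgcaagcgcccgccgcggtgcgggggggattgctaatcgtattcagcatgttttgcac
Hoxa10, start nearest Hoxa11, chr6:52240855-52241104, minus strand: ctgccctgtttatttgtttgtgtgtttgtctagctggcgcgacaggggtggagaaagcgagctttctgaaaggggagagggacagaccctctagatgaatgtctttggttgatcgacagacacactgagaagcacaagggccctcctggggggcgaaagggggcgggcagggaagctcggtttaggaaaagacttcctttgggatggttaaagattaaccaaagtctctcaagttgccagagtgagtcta
Hoxa11, chr6:52245811-52246060, minus strand: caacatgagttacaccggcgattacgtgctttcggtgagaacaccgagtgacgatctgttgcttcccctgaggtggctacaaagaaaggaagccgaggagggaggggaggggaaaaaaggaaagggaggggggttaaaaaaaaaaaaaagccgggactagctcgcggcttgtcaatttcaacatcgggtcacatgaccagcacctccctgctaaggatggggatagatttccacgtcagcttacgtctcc
Hoxd4, chr2:74721728-74721977, plus strand: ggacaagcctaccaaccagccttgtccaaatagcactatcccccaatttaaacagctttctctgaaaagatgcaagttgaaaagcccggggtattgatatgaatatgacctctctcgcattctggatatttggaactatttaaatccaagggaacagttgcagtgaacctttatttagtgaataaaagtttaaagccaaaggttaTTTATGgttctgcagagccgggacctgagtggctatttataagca
Hoxd8, chr2:74704365-74704614, plus strand: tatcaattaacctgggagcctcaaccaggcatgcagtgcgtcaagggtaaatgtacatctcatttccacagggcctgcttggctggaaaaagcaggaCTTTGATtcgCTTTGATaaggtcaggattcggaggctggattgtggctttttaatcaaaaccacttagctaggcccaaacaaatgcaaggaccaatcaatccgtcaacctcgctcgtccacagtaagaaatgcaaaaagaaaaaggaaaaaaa
The E-box form was in 3 of the 24 Hox promoters (12.5%), those of Hoxa3, Hoxa5 and Hoxa6, beside 13% of 32851 promoters. The caudal core was in 5 (20.8%), beside 10.8%, with 2 matches each in Hoxa7 and Hoxb8. CTTTGAT was in 1 (4.17%), beside 3.21%, with 2 matches in Hoxd8, and CTTTGAA in 1 (4.17%), Hoxd12, beside 4.46%. In the windows of Hoxa9, Hoxa10 and Hoxa11 none of these letters occurred, which says nothing of binding elsewhere.

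Genes that work with or upstream of Hox factors were examined by lists. Of 9 cofactor genes 8 entered the tests, all but Meis1, which was never well above background, and 0 reached 2-fold on any array. Their ratios ran from -0.74 to 0.40, and the lowest was Pbx4 in Ascl2 over expressing organoids. The Pbx2 and Pbx3 genes, whose products bind DNA together with Hox proteins, were well above background in all 16 channels. Of 30 Polycomb and Trithorax genes, which keep Hox clusters silent or active, all entered the tests, and 1 reached 2-fold. That gene was Psip1, whose product tethers MLL complexes to chromatin, at -1.03 in Tcf7l2null/Ascl2 over expressing organoids, beside 0.22 on the self-self array of experiment 2. It was just short of 2-fold lower in Ascl2null organoids, beside -0.60 on the self-self array of experiment 3. In Tcf7l2null/Ascl2 over expressing organoids 6 of the 30 were above 0, with a median of -0.19, and in Ascl2null organoids 5 of 30 with a median of -0.23. On the self-self arrays 9 of 29 and 12 of 30 were above 0. In the 3-array test of Ascl2 overexpression 0 of the 8 cofactor, 30 Polycomb and Trithorax, 15 retinoic acid or 4 ParaHox and caudal genes passed at the adjusted threshold.

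The ParaHox gene Pdx1, a factor of the duodenum and pancreas, was 1.70 in Ascl2 over expressing, 1.51 in Tcf7l2null/Ascl2 over expressing and 2.31 in Ascl2null organoids, and -0.24 and 0.050 in experiment 1. Its difference between the experiments was 1.87 (limma adjusted p = 0.0285). Cdx2, the caudal factor that specifies intestine, was -1.20 and 0.24 on the dye-swapped arrays of experiment 1, with opposite signs, and -1.43 in Ascl2null organoids. Of the retinoic acid pathway genes, the retinal dehydrogenase gene Aldh1a1 was 0.96 in Ascl2null organoids, beside 0.38 on the self-self array.

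The label of small-intestinal organoids was checked against markers. All 6 epithelial markers (Epcam, Cdh1, Vil1, Krt8, Krt19 and Cdx2) were well above background in all 16 channels, and 3 of them reached 2-fold: Krt8, at 1.43 in Tcf7l2null and 1.40 in Ascl2 over expressing organoids, Krt19, at 1.08, 1.22 and, in Ascl2null organoids, 1.04, and Cdx2. On the self-self arrays Krt8 was -0.14 and 0.50, and Krt19 0.19 and 0.79. Of 15 mesenchyme markers, 5 were never well above background (Col6a1, Des, Foxf2, Twist1 and Twist2) and 8 entered the tests, among them Acta2 and Col1a2 in all 16 channels. These 8 ran from -0.29 to 0.66, and 0 reached 2-fold. Their summed log2 intensity was 12.1 in Tcf7l2null/Ascl2 over expressing RNA and 12.3 to 13.3 in the other 15 channels. Own minus control, it was -0.61 on the Tcf7l2null/Ascl2 over expressing array and 0.17 on the Ascl2 over expressing array, beside -0.081 on the self-self array, and -0.11 on the Ascl2null array. The sum runs over 10 single probes and weighs bright ones most, whereas a gene's value averages all its probes. By gene, the 8 markers had a median of -0.074 on the Tcf7l2null/Ascl2 over expressing array, from -0.15 (Acta2) to 0.59 (Pdgfrb). No gene was as low there as the sum, so probes of the same gene went apart, and single marker probes were not examined. Pdgfrb was 0.66 on the Ascl2 over expressing, 0.47 on the Tcf7l2null and 0.18 on the self-self array. The endothelium, blood, and nerve and glia lists had 2 of 4, 4 of 4 and 3 of 4 genes in the tests, with ratios from -0.84 to 0.31 and 0 at 2-fold. Of 5 markers of large intestine epithelium, Car4 was never well above background, and Aqp8, a water channel, passed the 3-array test at -1.21 (limma adjusted p = 0.0344; lower on 3 of 3 arrays). In experiment 2 Aqp8 was -0.78 in Tcf7l2null/Ascl2 over expressing, -1.64 in Ascl2 over expressing and -1.73 in Tcf7l2null organoids. On that last array Hoxa10 and Hoxa11 were 0.046 and 0.067. Aqp8 was 0.65 in Ascl2null organoids, and -0.068 and -0.21 on the self-self arrays. In bulk RNA, fewer cells of a type and less RNA per cell cannot be told apart, and the part of cell makeup in any of these ratios was not tested.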

How the data were processed

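The members and gene lists were chosen with earlier results of these data known. Per the file headers, the deposited scanner files hold spot intensities of 45018 spots per array, 1639 of them controls, from Agilent Feature Extraction 10.5.1.1, with its own log10 ratio of Cy5 over Cy3. The authors' deposited table holds log2 ratios, with array medians from -0.01 to 0.03. It followed the scanner ratio except on the experiment 1 arrays (r = 0.86 and 0.85), for a reason not given in the sources used here; it runs own RNA over control there and is not further centred.

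Median spot and background intensities were used, because 6 files hold no mean signal. Gene names came from the 2 files of experiment 1, by spot number. Here, 33 Cy3 and 53 Cy5 spots of experiment 1 replicate 2, and 1 Cy3 spot of the Tcf7l2null array, had a local background above 10 times the array's median and were set to that median, a step chosen after seeing the data: without it the median mean log2 intensity of replicate 2 was 11.44, not 7.35. Then followed normexp (offset 50), within-array loess (weight 0 for control and outlier spots), removal of outlier spots, averaging of spots per probe and of all probes per gene, and turning of the dye-swapped array (R 4.3.3, limma 3.58.1). Ratios of single arrays are as measured; fits carry a dye term. Tests are two-sided, and p-values were adjusted across all genes by Benjamini-Hochberg, with a threshold of 0.05. The fit was tested on simulated data. Levels are intensities after quantile normalisation of the arrays' average intensity. Loess sets most genes near 0. Offset 50 pulls dim ratios towards 0.

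Named by array were Hox genes with both channels well above background on at least 6 arrays or at 2-fold on an array that is not self-self; of other lists, genes past the test, at 2-fold or defining markers, at most 6 per list. Hoxa5, Hoxb4, Hoxb9, Hoxc6, Pbx4 and Aldh1a1 were named after their values were seen. The number of arrays limits the precision. No per-sample column was left unused. A few genes and sequences are not reported here.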

Additional observations from a re-analysis of the deposited data

Results flagged for a closer look

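The effect of Ascl2 overexpression on Hoxa10 differed between the experiments: experiment 2 lay 1.67 above experiment 1 on the log2 scale (limma adjusted p = 0.0298). It was higher on 1 of 1 array of experiment 2, and near 0 on both arrays of experiment 1. The single array of experiment 2 was set against technical spread, and its slide, control RNA and scan differ from those of experiment 1, so they cannot be told apart from the overexpression.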

How the results depend on the processing

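With 2 arrays of experiment 1 and 1 array for each other condition, the number of arrays limits every result. No paired analysis was possible because no other condition has a second replicate. For Ascl2 overexpression, Hox genes passing numbered 0 in the main fit and 1, Hoxd4, with no filter, with no dye term and with normexp offset 16. Leaving out a replicate, a dye term per slide, experiment 1 alone, the scanner's log ratio, median centring, the deposited table, other probe rules and no background repair gave 0. Over all genes the 14 calls of that fit became 0 with the scanner's log ratio, median centring, the deposited table, a dye term per slide, without either replicate and without the background repair, and 24 with offset 16, 32 with no filter, 158 with experiment 1 alone and 160 with no dye term. For experiment 2 minus experiment 1, the count of 1 became 3 with the scanner's log ratio (Hoxa9, Hoxa10, Hoxa11), 2 with no filter, with no dye term and with offset 16 (Hoxa10, Hoxa11), and 0 with median centring, the deposited table and the filter on all 8 arrays. Leaving out either replicate gave 0 to 0. Over all genes its 91 calls became 0 with median centring and without replicate 1, 54 without the repair, 161 with offset 16, 163 with the deposited table and 262 with no dye term. A dye term per slide and experiment 1 alone leave this difference without a test. At 2-fold, the scanner's log ratio gave 4, 4, 3, 8 and 12 Hox genes for the mean of experiment 1, Ascl2 over expressing, Tcf7l2null, Tcf7l2null/Ascl2 over expressing and Ascl2null organoids, where the main counts were 0, 2, 1, 4 and 3. The deposited table gave 4, 3, 7 and 12 for the last 4 of these, the filter on all 8 arrays 0, 0, 1 and 0, and offset 16 gave 5 for Ascl2null. That filter removes dim genes by construction, and the deposited table has no experiment 1 mean for Hoxa10; the cause of the other changes was not tested. Of the 10 ratios of named genes at or beyond 2-fold, 0 changed sign in 91 recomputed values, and 31 moved by more than the residual spread. Offset 16 and the missing repair were chosen after seeing the data.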
